A study of Mus musculus with 8 samples.

Results

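LGXSM-6 and LGXSM-33 are recombinant inbred lines from a cross of the inbred strains LG/J and SM/J, at opposite ends of healing. The methods class LGXSM-6 as a good healer and LGXSM-33 as a poor one, called healer and non-healer here. The comparison took every assay replicate filed under either line, which is 2 of the 8 strains of the series, 24 of the 76 assay replicates of a first panel and 24 of the 78 of a second, with 12 for each line in each panel, and all 67 target mRNAs. Each mouse had a full-thickness articular cartilage defect made in the knee at 8 weeks of age, in both lines alike, and the methods give a harvest 16 weeks after surgery. There was no unoperated knee among the samples used here, so a difference between the lines cannot be split into one present before injury and one that followed it. The study addressed which candidate genes differ in expression among strains that heal cartilage and ear wounds to different degrees. The other strains used here were the parents LG/J (healer) and SM/J (non-healer), and MRL/MpJ (healer) and C57BL6/J (non-healer). LGXSM-5 and LGXSM-35, recombinant lines of the same cross that the methods class as intermediate healers, entered the fit over all strains and the order of the strain means.

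The material was a homogenate of formalin-fixed, paraffin-embedded knee sections, cut at 5 µm with 25 sections per strain and taken from 3 to 4 mice a strain. It held subchondral bone, cartilage, meniscus, growth plate, capsule and synovium together. In such a mixture, fewer cells of a type and less mRNA per cell cannot be told apart. The QuantiGene Plex assay captures each mRNA on coded beads and reads it through branched DNA as a fluorescent signal, without amplification of the RNA. The 12 numbered signals of a line are called assay replicates here. They come from at most 4 mice, so some of them are repeated measures of a mouse, and the files do not say which. All P values over assay replicates therefore measure only the spread between assay replicates. Values of consecutive numbers (1 to 3, 4 to 6, 7 to 9 and 10 to 12) lay close together, and the median share of the variance within a line that lay between these runs of 3 was 80.4% over the 67 mRNAs. A test on the 4 run means of each line was added after the data were seen, and its result stands beside the results below.

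A knee joint that repairs cartilage draws on cells that also build the growth plate and bone. Chondrocytes lay down type II collagen and aggrecan, and as they enlarge they make type X collagen and the collagenase MMP13, under the control of Indian hedgehog. Osteoblasts, driven by RUNX2, then make type I collagen and osteocalcin. Autophagy, in which a cell digests its own components in membrane vesicles, keeps chondrocytes alive in a tissue with no blood supply and few cell divisions. These processes were represented in the panels by sets of mRNAs, with others for DNA repair, Wnt and transforming growth factor beta signalling, cytokines and adipokines.

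Markers of the joint's tissues were found in both lines. The signal of *Col1a1*, the main collagen of bone and capsule, had a median of 28779 in LGXSM-6 and 25804 in LGXSM-33. That of *Col2a1*, the collagen of cartilage, had medians of 9544 and 4300. The summed signal of the adipocyte markers *Adipoq*, *Lep* and *Retn* ranged from 43.5 to 114 in LGXSM-6 and from 39.5 to 126 in LGXSM-33, and that of *Ccl3*, *Il4* and *Mmp9*, made by leukocytes among other cells, from 410 to 1460 and from 149 to 736. None of these 6 mRNAs passed the test between the lines in the deposited normalization. *Mmp9*, with the highest median signal of the 3 leukocyte markers in both lines, was at 0.96 as a ratio to all reference genes (limma adjusted P = 1.54e-09), 1.67 as a ratio to *Gapdh* (1.39e-11) and 1.60 without normalization (8.18e-05). Of the 6, 1 was higher and 3 were lower in LGXSM-6 with the ratio to all reference genes, 1 higher and 4 lower with *Hprt1*, and 2 higher and 0 lower with *Gapdh* or without normalization. The part of other cell types in the results was not tested.

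The promoter windows of 5 mRNAs on which the comparison turns are given for orientation: *Bglap1*, *Mmp13*, *Mia1* and *Ihh*, higher in LGXSM-6, and *Polq*, lower. The sequences are those of RefSeq for the reference mouse genome, build GRCm38.p6, not of the lines, and run 5′ to 3′ from 250 bases before the start of the gene to 50 after it. They lie at chr3:88384417-88384716, minus strand (*Bglap1*, listed as *Bglap*), chr9:7272264-7272563, plus strand (*Mmp13*), chr7:27181100-27181399, minus strand (*Mia1*, listed as *Mia*), chr1:74951623-74951922, minus strand (*Ihh*) and chr16:37011536-37011835, plus strand (*Polq*). Capitals mark the RUNX core motif ACCACA or its reverse complement TGTGGT, searched on both strands because RUNX2 is on the panel and is known to act on the genes of osteocalcin and MMP13.
Bglap1: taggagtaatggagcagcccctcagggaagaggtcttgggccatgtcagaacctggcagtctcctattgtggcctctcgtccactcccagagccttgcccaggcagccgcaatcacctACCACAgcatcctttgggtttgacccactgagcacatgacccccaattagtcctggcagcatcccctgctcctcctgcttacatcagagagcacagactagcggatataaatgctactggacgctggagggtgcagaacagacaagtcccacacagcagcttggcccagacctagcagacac
Mmp13: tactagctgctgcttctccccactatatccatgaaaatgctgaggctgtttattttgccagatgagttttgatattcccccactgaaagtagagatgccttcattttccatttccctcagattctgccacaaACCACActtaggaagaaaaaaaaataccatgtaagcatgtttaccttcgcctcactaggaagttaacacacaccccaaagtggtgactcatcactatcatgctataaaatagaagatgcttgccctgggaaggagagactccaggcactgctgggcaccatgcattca
Mia1: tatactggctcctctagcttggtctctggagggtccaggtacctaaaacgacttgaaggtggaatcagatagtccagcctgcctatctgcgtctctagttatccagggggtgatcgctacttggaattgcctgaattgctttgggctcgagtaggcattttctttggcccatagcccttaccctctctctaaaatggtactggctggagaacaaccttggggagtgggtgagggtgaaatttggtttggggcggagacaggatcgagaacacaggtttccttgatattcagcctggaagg
Ihh: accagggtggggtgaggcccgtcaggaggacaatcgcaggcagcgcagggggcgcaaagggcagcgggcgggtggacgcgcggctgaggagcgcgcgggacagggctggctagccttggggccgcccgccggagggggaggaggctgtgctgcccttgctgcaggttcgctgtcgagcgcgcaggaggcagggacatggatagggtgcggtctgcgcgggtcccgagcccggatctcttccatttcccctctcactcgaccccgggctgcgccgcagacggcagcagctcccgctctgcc
Polq: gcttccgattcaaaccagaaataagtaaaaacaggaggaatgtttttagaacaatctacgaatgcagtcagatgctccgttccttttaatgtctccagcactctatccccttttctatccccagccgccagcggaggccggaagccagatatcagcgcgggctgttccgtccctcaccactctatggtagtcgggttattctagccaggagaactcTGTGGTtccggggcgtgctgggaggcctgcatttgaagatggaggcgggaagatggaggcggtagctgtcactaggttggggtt

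The motif was found in the windows of *Bglap1*, *Mmp13* and *Polq* and was not found in those of *Mia1* and *Ihh*. It is in 16.8% of all 32851 windows of the table. Of the 66 mRNAs reported here, 48 have a window in the table, and 8 of these hold the motif. Among them are 4 of the 8 windows of mRNAs that differed between the lines, the other being that of *Runx2* itself. The motif was chosen after the values were seen, and a match is a string of letters, not a binding site.

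After normalization, 14 of the 67 mRNAs differed between the lines at an adjusted P under 0.05 (20.9%), by limma across all 8 strains with Benjamini-Hochberg adjustment over the 67. Of these, 9 were higher in LGXSM-6 (13.4%) and 5 were lower (7.46%). The normalized values are residuals of a regression on the reference genes, given here on the log2 scale, so a difference of 1 is a 2-fold difference. The higher mRNAs were *Mia1*, *Bglap1*, *Col2a1*, *Wisp1*, *Ihh*, *Mmp13*, *Xrcc2*, *Runx2* and *Nampt*. The lower ones included *Polq* and the autophagy mRNAs *Atg7*, *Becn1* and *Map1lc3a*. The directions are those of the deposited normalization: *Polq*, *Atg7* and *Becn1* turned without normalization and as a ratio to *Gapdh*, and *Col2a1*, *Wisp1* and *Nampt* as a ratio to *Hprt1*. Over all 67 mRNAs the median difference was 0.02, with a range from −0.66 to 0.77.

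How far these counts go depends on the replicate and on the reference genes. With the 4 run means of each line in place of the 12 assay replicates, 3 of the 67 mRNAs passed (4.48%): *Bglap1* and *Wisp1*, higher in LGXSM-6 (2.99%), and *Polq*, lower (1.49%). That fit held the 2 lines alone, without the other strains, and on the assay replicates of the 2 lines alone 13 passed by limma. The same 3 mRNAs were the ones whose run means did not overlap between the lines (4.48% of the 67). In the fit on run means 7 mRNAs had an unadjusted P under 0.05. In 0 of the 67 mRNAs were all 12 assay replicates of one line above all 12 of the other (0%). Without normalization 37 mRNAs passed, of which 35 were higher in LGXSM-6. With the regression fitted on the assay replicates of the 2 lines alone, 0 passed by limma at the adjusted threshold, and the smallest adjusted P was 0.973. *Hprt1* and *Actb* themselves differed between the lines, as given below, so that regression can take up a difference between the lines. Its count of 0 is therefore not read as a lack of differences.

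**Figure D1:**
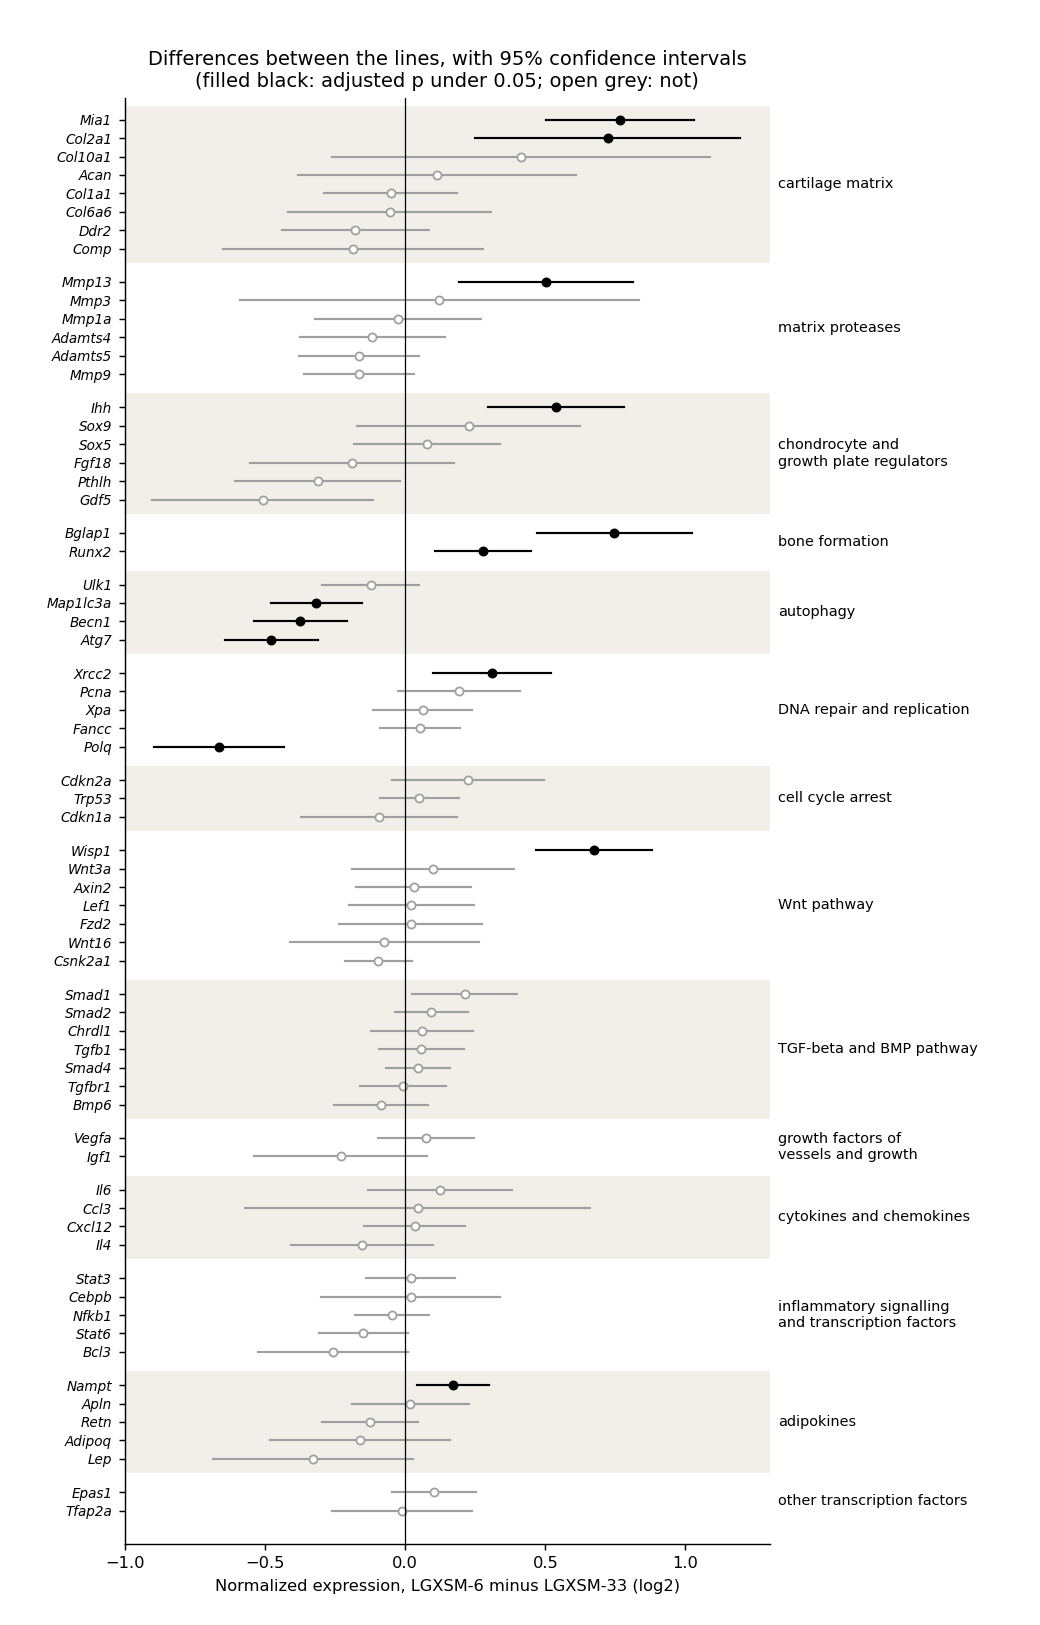
Difference in normalized expression between LGXSM-6 and LGXSM-33 (horizontal axis, log2) for 66 mRNAs, arranged by gene list, with points for the limma estimate over 12 assay replicates of each line and bars for its 95% confidence interval. Filled black points passed at an adjusted P under 0.05; *Mia1*, *Bglap1*, *Col2a1* and *Wisp1* lie farthest to the right, and *Polq* and 3 of the 4 autophagy mRNAs among those to the left, while with no normalization or a ratio to *Gapdh* the points of *Polq*, *Atg7* and *Becn1* would lie to the right of 0, and with a ratio to *Hprt1* those of *Col2a1*, *Wisp1* and *Nampt* to the left.

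The reference genes themselves differed between the lines. *Actb*, the cytoskeletal actin used in the first panel, had signals from 9449 to 24532 with a median of 14509 in LGXSM-6, and from 2122 to 14421 with a median of 4230 in LGXSM-33. The geometric means differed 3.04-fold (two-sided permutation test, adjusted P = 0.000400 over 5 tests). *Hprt1*, an enzyme of purine salvage, was 2.74-fold higher in LGXSM-6 in the first panel (adjusted P = 0.001675, permutation test) and 2.57-fold higher in the second (adjusted P = 0.00223, permutation test). *Gapdh*, the glycolytic enzyme, differed by less than the spread of its signals, with medians of 18668 and 16067 in the first panel (adjusted P = 0.890, permutation test).

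One stretch of LGXSM-33 stood apart in these signals. Its assay replicates 10 to 12 gave *Actb* signals from 11329 to 14421, against 2122 to 4734 for numbers 1 to 9, and *Hprt1* signals in the first panel from 263 to 370 against 55 to 114. Without those 3 the difference grew to 4.20-fold for *Actb* and to 3.76-fold for *Hprt1* in the first panel and 3.60-fold in the second. On the 4 run means of each line, the difference of *Actb* and of *Hprt1* in the first panel had an exact permutation P of 0.0857, and that of *Hprt1* in the second 0.114, with 0.0286 the smallest P that 4 against 4 can give. The *Gapdh* signals of the same number in the 2 panels followed each other, with a Pearson r of 0.971 over the 12 numbers of LGXSM-6 and 0.968 in LGXSM-33. This is a description, and the sources used here do not state whether the same number in both panels is the same homogenate.

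**Figure D2:**
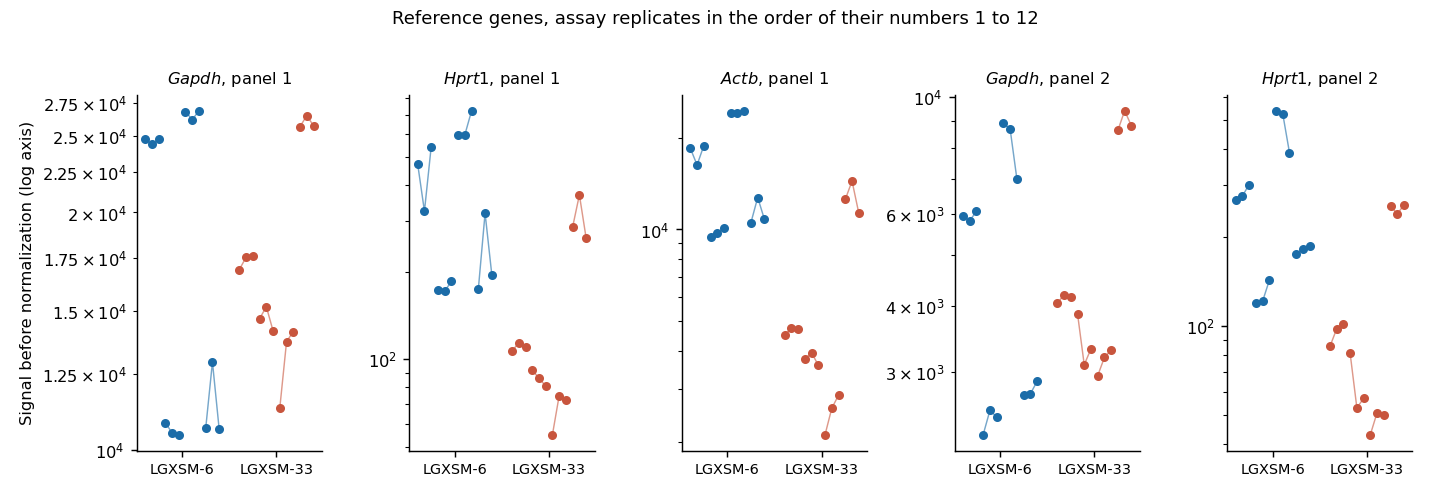
Signals of the reference genes before normalization (vertical axis, log scale) for each of the 12 assay replicates of LGXSM-6 (blue) and LGXSM-33 (red) in the order of their numbers, with lines joining runs of 3. *Hprt1* and *Actb* of LGXSM-33 lie below most of those of LGXSM-6 except in the last run. The ranges of *Gapdh* over all 12 numbers overlap between the lines, while in no run of the same numbers do they: LGXSM-6 is higher in 1 to 3 and 7 to 9 and lower in 4 to 6 and 10 to 12, in both panels.

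The treatment of the reference genes moved the median difference, while single mRNAs moved by different amounts and some the other way. From the deposited values to no normalization the median rose from 0.02 to 0.68. Over the same step *Pcna* went from 0.19 to 2.02 and *Gdf5* from −0.51 to −0.95. The median difference of the 67 mRNAs was 0.68 with no normalization, 0.73 as a ratio to *Gapdh*, −0.22 as a ratio to all reference genes and −0.71 as a ratio to *Hprt1*. The split of calls moved with it: 40 higher and 2 lower with *Gapdh*, 12 higher and 22 lower with all reference genes, and 3 higher and 50 lower with *Hprt1*. The ratios and the signals without normalization differ from each other by a constant for each panel, so the order of the mRNAs within a panel is the same in them by construction. Relative to the median mRNA, *Becn1* was at −0.39 in the deposited values and 0.20 with the ratio to all reference genes. It was at −0.03 with *Gapdh*, −0.02 with *Hprt1* and −0.05 without normalization. The median spans both panels, whose constants can differ, so a place against it can also move with the panel. *Nampt* was at 0.15 relative to the median in the deposited values and −0.0013 with the regression on the 2 lines. Single calls also ended without a turn of sign. As a ratio to *Hprt1* those of *Bglap1*, *Ihh*, *Mmp13*, *Xrcc2* and *Runx2* did, as a ratio to all reference genes those of *Col2a1*, *Polq* and *Becn1*, and without normalization that of *Map1lc3a*, with values beside each mRNA below.

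**Figure D3:**
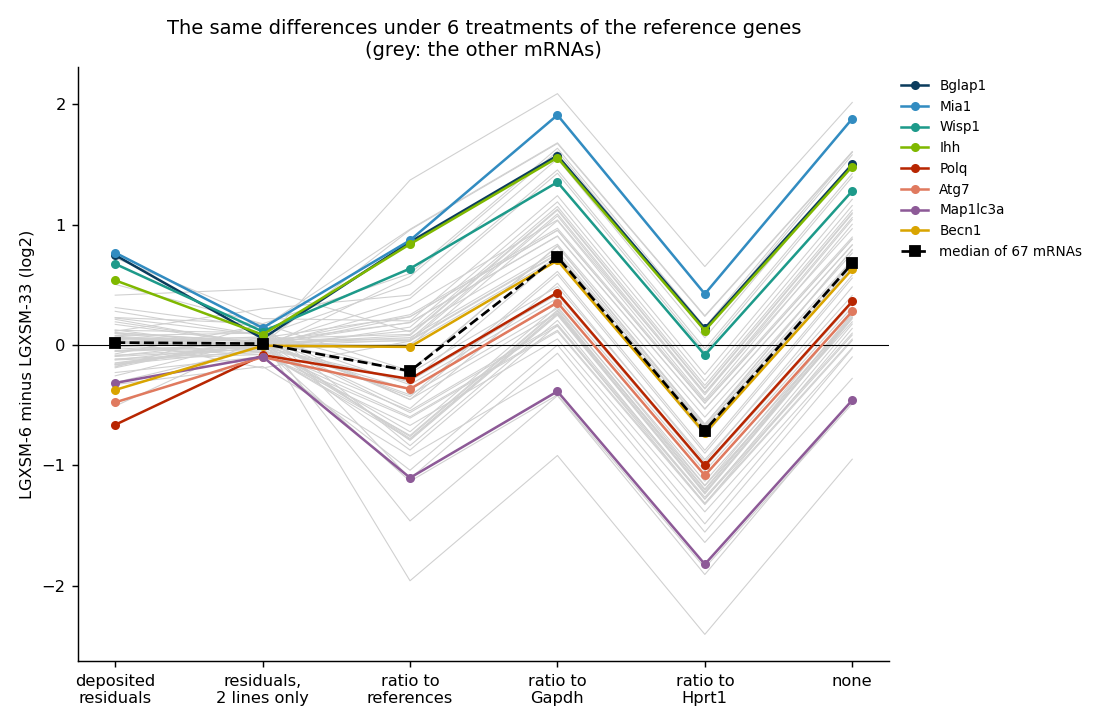
Difference between LGXSM-6 and LGXSM-33 (vertical axis, log2) under 6 treatments of the reference genes (horizontal axis), with a coloured line for each of 8 mRNAs, grey lines for the other reported mRNAs and a dashed black line for the median of all 67. The median moves from 0.02 to 0.68 without normalization and to −0.71 with the ratio to *Hprt1*. *Becn1* lies below the median in the deposited values and above it with the ratio to all reference genes. With the ratio to *Gapdh* or *Hprt1* and without normalization it lies just below the median. The ratios and the signals without normalization differ by a constant for each panel.

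Among the mRNAs of bone formation, 2 of 3 were higher in LGXSM-6 (against 13.4% of all 67) and none was lower, with a median difference of 0.28 against 0.02 for all 67. *Bglap1* encodes osteocalcin, the protein that mature osteoblasts secrete into bone. Its normalized expression ran from 0.15 to 1.36 with a median of 0.60 in LGXSM-6, and from −0.39 to 0.18 with a median of −0.01 in LGXSM-33. All but 1 assay replicate of LGXSM-6 lay above the highest of LGXSM-33, and the overlap was limited to the run 7 to 9 of LGXSM-6. The difference was 0.75 (SE 0.14, 1.68-fold, limma adjusted P = 1.01e-05), and on the run means the adjusted P was 0.0324 (limma). As a ratio to *Hprt1* it did not pass (0.14, limma adjusted P = 0.392). Run means were 0.75, 1.32, 0.19 and 0.50 in LGXSM-6 and −0.11, 0.16, −0.35 and 0.06 in LGXSM-33. Before normalization the signal of *Bglap1* had a median of 4707 in LGXSM-6 and 1531 in LGXSM-33. RefSeq lists this older symbol under *Bglap* and under *Bglap2*, and it is unknown which of their transcripts the probe captured.

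*Runx2*, the transcription factor that commits cells to the osteoblast lineage and drives chondrocyte enlargement, ran from −0.17 to 0.51 with a median of 0.22 in LGXSM-6 and from −0.35 to 0.19 with a median of −0.05 in LGXSM-33. The ranges overlapped, with 7 assay replicates of LGXSM-6 above all of LGXSM-33. The difference was 0.28 (SE 0.09, limma adjusted P = 0.0122), and it did not pass on the run means (adjusted P = 0.481), without numbers 4 to 6 of LGXSM-6 or without 10 to 12 of LGXSM-33 (highest adjusted P 0.159), or as a ratio to *Hprt1* (0.06, limma adjusted P = 0.679). *Col1a1*, the other member, had a difference of −0.05 (SE 0.12) and did not pass. Its signals ran from 22560 to 29383, with the highest median signal of the panels in each line. In LGXSM-6 their run median was 29030 in numbers 1 to 3 and 28025 in 4 to 6, where that of *Gapdh* went from 24746 to 10526. Whether the bead signal was near its upper limit was not tested, and no lack of a difference is read from this value.

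In the list of cartilage matrix mRNAs, 2 of 8 were higher in LGXSM-6 and none was lower, and the median difference was 0.03. A share of 2 of 8 lies near the 13.4% of all mRNAs and is no result about the list. The same holds for the lists below with 1 of 5, 1 of 6 or 1 of 7 members higher. *Mia1* encodes a small secreted protein of cartilage, also known as cartilage-derived retinoic acid-sensitive protein. In LGXSM-6 it ran from 0.05 to 1.01 with a median of 0.74, and in LGXSM-33 from −0.51 to 0.35 with a median of −0.12. In LGXSM-6, 9 assay replicates lay above the highest of LGXSM-33, and those of the run 7 to 9 lay within its range. The difference of 0.77 (SE 0.13, 1.70-fold) was the largest of the 67 mRNAs in the deposited normalization (limma adjusted P = 3.33e-06), with an adjusted P of 0.0916 on the run means. Its signals before normalization did not overlap, at 76 to 125 in LGXSM-6 and 16 to 44.5 in LGXSM-33.

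*Col2a1*, the type II collagen of hyaline cartilage, ran from −0.05 to 1.67 with a median of 0.96 in LGXSM-6 and from −0.72 to 0.86 with a median of 0.28 in LGXSM-33. Values of the same line differed by more than those of *Mia1*: the run means were 0.92, 1.63, −0.01 and 1.01 in LGXSM-6 and 0.42, 0.08, 0.76 and −0.59 in LGXSM-33. The difference was 0.72 (SE 0.24, limma adjusted P = 0.0198). It did not pass on the run means (adjusted P = 0.481), with the block for replicate number (adjusted P = 0.0761), without any one of 4 runs (numbers 4 to 6 or 10 to 12 of either line, with differences down to 0.47 and an adjusted P up to 0.205), and it was −0.25 as a ratio to *Hprt1* and 0.20 as a ratio to all reference genes (adjusted P = 0.523). In a Tukey test over the assay replicates of the 8 strains its P was 0.0702, and in the permutation test of medians over 12 assay replicates a line the adjusted P was 0.236. Of the remaining members, *Col10a1*, the collagen of enlarged chondrocytes, had a difference of 0.41 (SE 0.34), *Acan*, the main proteoglycan, 0.11 (SE 0.25), and *Comp*, a matrix protein of cartilage and tendon, −0.18 (SE 0.23), and none passed. *Col10a1* in LGXSM-33 spanned −1.92 to 1.92, a range wider than the −0.59 to 0.99 of LGXSM-6.

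**Figure D4:**
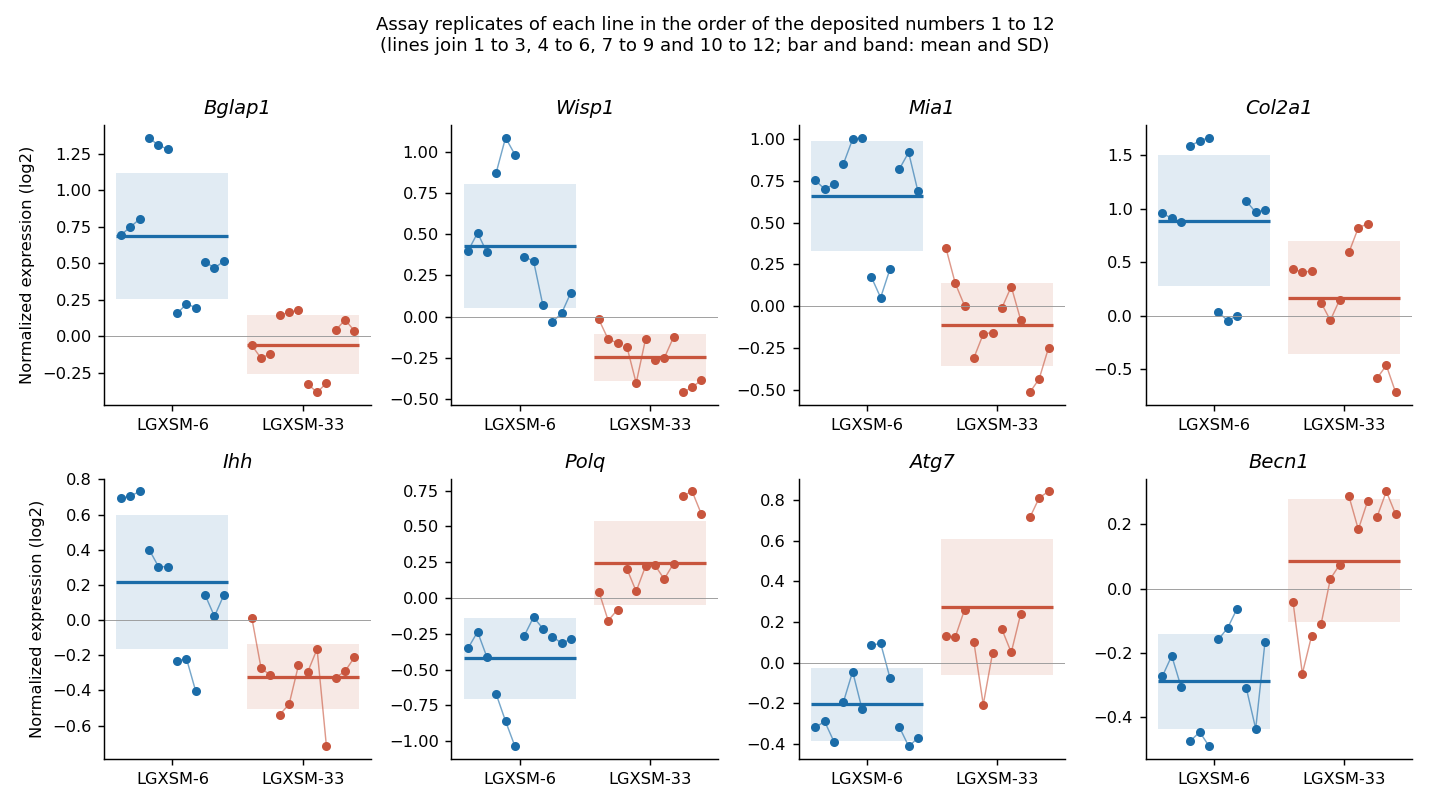
Normalized expression (vertical axis, log2) of 8 mRNAs in the 12 assay replicates of LGXSM-6 (blue) and LGXSM-33 (red) in the order of their numbers, with lines joining runs of 3, horizontal bars for the mean and bands for 1 SD. *Bglap1* and *Wisp1* lie higher in LGXSM-6 and *Polq* lower with nearly no overlap (*Wisp1* is at −0.08 as a ratio to *Hprt1*, and *Polq*, *Atg7* and *Becn1* are above 0 without normalization or as a ratio to *Gapdh*), while runs of *Col2a1* are spread across both lines.

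Among chondrocyte and growth plate regulators, 1 of 6 was higher in LGXSM-6 (against 13.4% of all 67) and none was lower, with a median difference of −0.06. *Ihh*, the hedgehog ligand that prehypertrophic chondrocytes secrete, ran from −0.41 to 0.73 with a median of 0.22 in LGXSM-6 and from −0.72 to 0.01 with a median of −0.29 in LGXSM-33. In LGXSM-6, 9 assay replicates lay above all of LGXSM-33, and the run 7 to 9 lay within them. The difference was 0.54 (SE 0.12, 1.45-fold, limma adjusted P = 0.000325), with an adjusted P of 0.10 on the run means. As a ratio to *Hprt1* it was 0.12 and did not pass (limma adjusted P = 0.608). Its signals were low, at 16 to 31 in LGXSM-6 and 4 to 13 in LGXSM-33, and did not overlap.

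*Pthlh*, the parathyroid hormone-like ligand that works in a feedback loop with Indian hedgehog, had a difference of −0.31 (SE 0.15, limma adjusted P = 0.149), and in the permutation test of means the adjusted P was 0.0256. *Gdf5*, a growth factor that marks joint-forming cells, had the larger value of −0.51 (SE 0.20, limma adjusted P = 0.0555) and did not pass in the deposited normalization. It passed as a ratio to all reference genes (−1.96, limma adjusted P = 2.47e-06), to *Gapdh* (−0.92, 0.00992) and to *Hprt1* (−2.41, 4.03e-08), and without normalization (−0.95, 0.000173), and in 13 of 36 settings in all. Its values in LGXSM-33 ran from −0.06 to 2.45 with a median of 0.20, against −0.21 to 0.48 with a median of 0.16 in LGXSM-6, so the medians lay close. The top values were those of numbers 7 to 9 of LGXSM-33. Without that run the difference was −0.02 (limma adjusted P = 0.96), and it was 0.06 with the regression fitted on the 2 lines. *Sox9*, the transcription factor of cartilage formation, had a difference of 0.23 (SE 0.20) and did not pass.

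The matrix proteases had 1 of 6 members higher in LGXSM-6 (against 13.4%) and none lower, and a median difference of −0.07. *Mmp13*, the collagenase of enlarged chondrocytes and of cartilage breakdown, ran from 0.17 to 1.29 with a median of 0.56 in LGXSM-6 and from −0.56 to 0.82 with a median of 0.10 in LGXSM-33. The ranges overlapped over much of their width, with 3 assay replicates of LGXSM-6 above all of LGXSM-33 and 6 of LGXSM-33 below all of LGXSM-6. The difference was 0.50 (SE 0.16, limma adjusted P = 0.0122), and it did not pass on the run means (adjusted P = 0.689). It also did not pass without any one of 3 runs (numbers 4 to 6 of LGXSM-6, or 1 to 3 or 10 to 12 of LGXSM-33), with differences down to 0.29 (limma adjusted P up to 0.216). Nor did it pass as a ratio to *Hprt1* (0.15, limma adjusted P = 0.447), with limma on the 2 lines alone (adjusted P = 0.0519), or in the permutation tests of means and of medians (adjusted P = 0.0643 and 0.105).

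Before normalization the signals of *Mmp13* did not overlap, at 1625 to 3591 in LGXSM-6 and 483 to 1367 in LGXSM-33. *Mmp9*, the gelatinase of osteoclasts and neutrophils, had a normalized difference of −0.17 (SE 0.10) that did not pass, and was at 0.96 as a ratio to all reference genes. Over all mRNAs, signals before normalization did not overlap in 5 of the 67 (7.46%), each time with LGXSM-6 higher: *Col2a1*, *Mia1*, *Ihh*, *Mmp13* and *Acan*.

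Of the 4 autophagy mRNAs, 3 were lower in LGXSM-6 (against 7.46% of all 67) and none was higher, with a median difference of −0.35 that turned to 0.45 without normalization and to 0.53 as a ratio to *Gapdh*. *Atg7* encodes the enzyme that activates the conjugation systems of autophagy. It ran from −0.41 to 0.10 with a median of −0.26 in LGXSM-6 and from −0.21 to 0.84 with a median of 0.15 in LGXSM-33. In LGXSM-6, 7 assay replicates lay below all of LGXSM-33, and the highest values of LGXSM-33 were those of numbers 10 to 12, with a run mean of 0.79. The difference was −0.48 (SE 0.08, limma adjusted P = 3.33e-06), and it was −0.31 without that run and still passed (adjusted P = 0.00118). On the run means the adjusted P was 0.145.

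*Becn1*, whose product beclin 1 starts the autophagic membrane, ran from −0.49 to −0.06 with a median of −0.29 in LGXSM-6 and from −0.26 to 0.30 with a median of 0.13 in LGXSM-33. The difference was −0.37 (SE 0.08, limma adjusted P = 0.000289; 0.232 on the run means), and as a ratio to all reference genes it was −0.02 (limma adjusted P = 0.910). The lines overlapped, with 7 assay replicates of LGXSM-6 below all of LGXSM-33. *Map1lc3a*, a light chain 3 protein that coats autophagic membranes, had a difference of −0.32 (SE 0.08, limma adjusted P = 0.00198; 0.462 on the run means), and it did not pass without numbers 10 to 12 of LGXSM-33 (−0.20, adjusted P = 0.0885), without normalization (−0.46, limma adjusted P = 0.121) or in the permutation test of medians (adjusted P = 0.114). *Ulk1*, the kinase that sets autophagy in motion, had a difference of −0.12 (SE 0.09) and did not pass. Of these mRNAs only *Map1lc3a* kept a negative difference under every treatment of the reference genes tried. *Atg7* and *Becn1* were at 0.28 and 0.63 without normalization, and at 0.35 and 0.70 as a ratio to *Gapdh*.

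The DNA repair and replication list split, with 1 of 5 members higher in LGXSM-6 (against 13.4%), 1 lower (against 7.46%) and a median difference of 0.06. *Polq*, the polymerase of error-prone end joining at double-strand breaks, ran from −1.03 to −0.13 with a median of −0.30 in LGXSM-6 and from −0.16 to 0.74 with a median of 0.21 in LGXSM-33. All but 1 assay replicate of LGXSM-6 lay below the lowest of LGXSM-33. The difference was −0.66 (SE 0.12, 1.58-fold higher in LGXSM-33, limma adjusted P = 3.33e-06; 0.0324 on the run means).

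The run means of *Polq* were −0.33, −0.86, −0.20 and −0.29 in LGXSM-6 and −0.06, 0.16, 0.20 and 0.68 in LGXSM-33, with no overlap. The direction depended on the reference genes: *Polq* was at 0.36 without normalization and at 0.43 as a ratio to *Gapdh*, in both cases below the median mRNA, and as a ratio to all reference genes it did not pass (−0.28, limma adjusted P = 0.127). *Xrcc2*, a protein of double-strand break repair, had a difference of 0.31 (SE 0.11, limma adjusted P = 0.0249; 0.481 on the run means) between ranges that overlapped, from −0.43 to 0.41 in LGXSM-6 and from −0.58 to 0.28 in LGXSM-33. Its signals were low, at 19.5 to 95 in LGXSM-6 and 7 to 30.5 with a median of 11.5 in LGXSM-33. Leaving out any of 5 of the 8 runs ended the call (adjusted P up to 0.205), as did the ratio to *Hprt1* (0.24, limma adjusted P = 0.127), the permutation tests of means and of medians (adjusted P = 0.0643 and 0.158) and the Tukey test over assay replicates (P = 0.0881).

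In the Wnt list, 1 of 7 mRNAs was higher in LGXSM-6 (against 13.4%) and none was lower, and the median difference was 0.02. *Wisp1*, a matricellular protein whose gene responds to Wnt signalling and which is made in healing bone, ran from −0.03 to 1.08 with a median of 0.38 in LGXSM-6 and from −0.46 to −0.02 with a median of −0.22 in LGXSM-33. All but 1 assay replicate of LGXSM-6 lay above the highest of LGXSM-33. The difference was 0.67 (SE 0.10, 1.59-fold), with the smallest adjusted P of the 67 mRNAs (5.75e-07, limma; 0.0324 on the run means). Its run means were 0.43, 0.98, 0.26 and 0.04 in LGXSM-6 and −0.10, −0.24, −0.21 and −0.42 in LGXSM-33. As a ratio to *Hprt1* it was at −0.08, where the median mRNA was at −0.71. *Axin2* and *Lef1*, also responsive to Wnt signalling, had differences of 0.03 (SE 0.10) and 0.02 (SE 0.11) and did not pass, and neither did *Wnt3a*, a Wnt ligand, at 0.10 (SE 0.15).

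Adipokines had 1 of 5 members higher in LGXSM-6 (against 13.4%) and none lower, with a median difference of −0.12. *Nampt*, an enzyme of NAD synthesis that is also secreted, had a small difference of 0.17 (SE 0.06, limma adjusted P = 0.0487, and 0.846 on the run means). It did not pass with the block for replicate number (adjusted P = 0.171), with limma on the 2 lines alone (adjusted P = 0.0590), in the Tukey test over assay replicates (P = 0.112) or the permutation test of medians (adjusted P = 0.0635). Nor did it pass without any one of 5 of the 8 runs, with differences down to 0.098 (limma adjusted P up to 0.382). As a ratio to *Hprt1* it turned to −0.47. *Lep*, the fat hormone leptin, had a difference of −0.33 (SE 0.18, limma adjusted P = 0.232) at signals of 7 to 18 and did not pass in the deposited normalization. It passed as a ratio to all reference genes (−0.92, limma adjusted P = 0.00727) and to *Hprt1* (−1.64, 3.32e-06).

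The remaining 6 lists, with 25 members, had no mRNA that passed in the deposited normalization by limma on all assay replicates or on run means. Some passed with a run of LGXSM-33 left out: *Smad1* without numbers 1 to 3 (0.28, limma adjusted P = 0.0358) and *Bcl3* without 10 to 12 (−0.43, limma adjusted P = 0.0227). *Gdf5* passed in the settings given above. With other treatments of the reference genes members also passed: 2 were higher and 8 lower in LGXSM-6 as a ratio to all reference genes, 18 higher and 1 lower with *Gapdh*, 0 higher and 21 lower with *Hprt1*, and 15 higher and 1 lower without normalization. The values that follow are those of the deposited normalization on all assay replicates. In the transforming growth factor beta and bone morphogenetic protein pathway, 0 of 8 passed by limma, with *Smad1* at 0.21 (SE 0.09, adjusted P = 0.115). Of 4 cytokines and chemokines none passed, with *Il4* at −0.15 (SE 0.13) and *Il6* at 0.12 (SE 0.13), nor did any of 5 mRNAs of inflammatory signalling and its transcription factors, with *Bcl3* at −0.26 (SE 0.13) and *Stat6* at −0.15 (SE 0.08). *Stat6* passed in the permutation test of means (adjusted P = 0.0497). Growth factors were at −0.23 (SE 0.15) for *Igf1* and −0.19 (SE 0.18) for *Fgf18*, mRNAs of cell cycle arrest at 0.22 (SE 0.14) for *Cdkn2a* and −0.09 (SE 0.14) for *Cdkn1a*. *Epas1* and *Tfap2a*, transcription factors of no other list, were at 0.10 (SE 0.07) and −0.01 (SE 0.13). Over all members of these 6 lists, *Gdf5* among them, the 95% confidence intervals of the differences reached from −0.90 (*Gdf5*) to 0.66 (*Ccl3*). These intervals are over assay replicates and set no bound on a difference between the mice of the lines. On the run means the SE was 0.43 for *Gdf5* and 0.56 for *Ccl3*, against 0.20 and 0.31 over assay replicates.

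Set against all 8 strains, LGXSM-6 had the highest mean of *Bglap1*, *Col2a1*, *Wisp1*, *Mmp13* and *Nampt*, and the lowest of *Polq* and *Becn1*. LGXSM-33 had the highest mean of *Map1lc3a*. These places are descriptions. In each of the 13 mRNAs, 1 to 4 other strains lay between the lines.

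The parents and the MRL/MpJ and C57BL6/J pair share no assay replicate with the lines, and give further comparisons of a healer with a non-healer. Between LG/J and SM/J, 16 of the 67 mRNAs passed (23.9%), and between MRL/MpJ and C57BL6/J 10 passed (14.9%). Of the 14 mRNAs that differed between the lines, 9 had the same sign between the parents and 9 between MRL/MpJ and C57BL6/J. Over all 67 mRNAs the sign was shared by 37 in each case (55.2%). Among mRNAs that passed in the lines and in the parents, 4 of 5 had the same sign, and among those that passed in the lines and in MRL/MpJ against C57BL6/J, 2 of 4.

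For *Mia1*, *Ihh*, *Mmp13* and *Runx2* the healer parent was higher too. LG/J exceeded SM/J by 0.43 (SE 0.16) for *Mia1*, 0.47 (SE 0.14) for *Ihh*, 0.66 (SE 0.19) for *Mmp13* and 0.44 (SE 0.11) for *Runx2*, with limma adjusted P values from 0.000841 to 0.0444. *Col2a1* and *Xrcc2* had parental differences of 0.65 (SE 0.29, adjusted P = 0.0922) and 0.31 (SE 0.12, adjusted P = 0.0508), which did not pass. *Mmp13* and *Xrcc2* were higher in MRL/MpJ than in C57BL6/J, by 0.51 (SE 0.18, limma adjusted P = 0.0390) and 0.95 (SE 0.12, limma adjusted P = 1.98e-09).

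The 3 mRNAs that also passed on the run means did not differ between the parents by limma: LG/J minus SM/J was 0.01 (SE 0.16) for *Bglap1*, −0.08 (SE 0.12) for *Wisp1* and 0.27 (SE 0.13) for *Polq*. The difference between the lines exceeded that of the parents by 0.74 (SE 0.21, limma adjusted P = 0.00548) for *Bglap1* and 0.75 (SE 0.16, limma adjusted P = 0.000175) for *Wisp1*, and lay 0.93 below it for *Polq* (−0.93, SE 0.18, limma adjusted P = 3.97e-05). These contrasts contain the lines' own difference, by which the 3 mRNAs were chosen, and are over assay replicates. Their P values are therefore no separate evidence, and no such contrast was fitted on run means. *Bglap1* was lower in MRL/MpJ than in C57BL6/J, by −0.83 (SE 0.16, limma adjusted P = 5.81e-05), which is opposite to the lines.

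**Figure D5:**
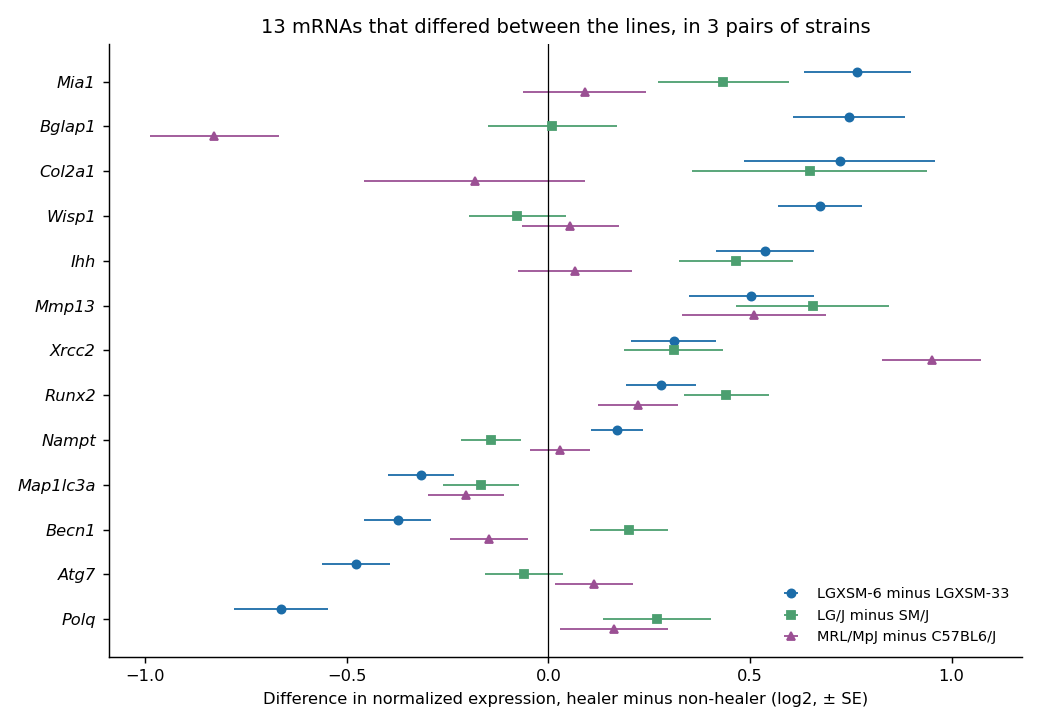
Difference in normalized expression (horizontal axis, log2, with bars for the SE of the limma fit) of 13 mRNAs between LGXSM-6 and LGXSM-33 (circles, n = 12 assay replicates each), LG/J and SM/J (squares) and MRL/MpJ and C57BL6/J (triangles). The pairs lie close for *Mmp13* and *Runx2*, whereas *Bglap1* is at 0.75 in the lines, 0.01 in the parents and −0.83 in MRL/MpJ against C57BL6/J; directions are those of the deposited normalization, and in the lines those of *Polq*, *Atg7* and *Becn1* turn without normalization and as a ratio to *Gapdh*, and those of *Col2a1*, *Wisp1* and *Nampt* as a ratio to *Hprt1*.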

How the data were processed

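Signals of a QuantiGene Plex assay were deposited in 2 panels, the first with 33 target mRNAs and the reference genes *Gapdh*, *Hprt1* and *Actb*, the second with 34 and *Gapdh* and *Hprt1*. The authors deposited log10 signals and, as normalized values in log10 units, what a multiple regression of each target on its panel's reference genes left over. The authors' fold changes and strain averages were not used. The methods state that background was subtracted, and whether the deposited signals precede this step is not given in the sources used here. The methods state 100 bead events read per bead region, and the files used here hold no spread over beads, so no interval was set on a single value; 7 of the 67 mRNAs had a median signal under 10.

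The deposited values, multiplied by 3.32 to give log2, were fitted by panel with limma 3.58.1 in R 4.3.3 over all 8 strains, with Benjamini-Hochberg adjustment over 67 mRNAs and a threshold of 0.05. Reference genes were compared by two-sided permutation tests with 100000 resamples in Python 3.11.15 with numpy 2.4.6. Residuals recomputed here differed from the deposited ones in these lines by at most 7.49e-05 in the first panel and 0.114 in the second (log2). Tukey's test over strains, which the methods name, was an alternative. It was run here on assay replicates, whereas the methods take a mean per mouse first, and the files used here do not tie values to mice. The steps were tested on simulated data.

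The mRNAs named are, in each direction, up to 12 that passed, by size, and the 2 largest differences of each list; any other was chosen after its values were seen. Members and lists were chosen with earlier results of these data known. Samples were grouped by strain as labelled, with 0 columns left out. One mRNA is not reported here. Of 66 mRNAs, 48 matched a RefSeq promoter window.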

Additional observations from a re-analysis of the deposited data

Results flagged for a closer look

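For 7 of the 14 mRNAs that differed between the lines, 6 of them reported here, the difference between LGXSM-6 and LGXSM-33 was not that between LG/J and SM/J, by a test of the contrast of the 2 differences in the limma fit (adjusted P under 0.05, as in 14 of the 67 mRNAs, 20.9%). The lines' difference exceeded the parents' by 0.74 on the log2 scale for *Bglap1*, 0.75 for *Wisp1* and 0.31 for *Nampt*. It was more negative than the parents' for *Polq* (−0.93), *Becn1* (−0.57) and *Atg7* (−0.42).

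Against MRL/MpJ and C57BL6/J the contrast passed in 9 of the 67 mRNAs (13.4%), and 7 of the 14 mRNAs that differed between the lines were among them, 6 of them reported here. The lines' difference was larger by 1.57 for *Bglap1*, which was lower in MRL/MpJ than in C57BL6/J, by 0.68 for *Mia1* and by 0.62 for *Wisp1*. For *Xrcc2*, *Polq* and *Atg7* the contrast was −0.64, −0.83 and −0.59. *Xrcc2* was higher in the healer of both pairs, by 0.31 in the lines and 0.95 in MRL/MpJ. Both contrasts contain the lines' own difference, by which the 14 mRNAs were chosen, so their share is not to be read against that of all 67. These contrasts are over assay replicates, and the strains' mice could not be told apart in them.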

How the results depend on the processing

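The count of mRNAs that differed between the lines (14, with 9 higher and 5 lower in LGXSM-6) moved most with the normalization. It was 0 (0 higher, 0 lower) with residuals fitted on the 2 lines, 34 (22 lower) with the ratio to the reference genes, 42 (40 higher, 2 lower) with the ratio to *Gapdh*, 53 (3 higher, 50 lower) with the ratio to *Hprt1* and 37 (35 higher, 2 lower) without normalization. The regression on the 2 lines can itself take up a difference between them, since *Hprt1* and *Actb* differed between the lines. It was 3 (2 higher, 1 lower) on means of runs of 3 in a fit of the 2 lines alone, 8 (4 higher) with Bonferroni adjustment and 10 (5 higher) with the permutation test of medians. It stayed within 1.5 times of the first count with recomputed residuals (14), filters on median signal of 10 (15) and 20 (13), limma on the 2 lines (13) or the 6 strains of the cross (14), array weights (15), the permutation test of means (14, of which 12 were shared) and the Tukey test over assay replicates (10, all among the 14; *Col2a1*, *Xrcc2* and *Nampt* were among those that did not pass). The permutation test of means ended the calls of *Mmp13* and *Xrcc2* and added *Pthlh* and *Stat6*. Leaving out each replicate number gave 11 to 15 (7 to 9 higher, 4 to 6 lower); leaving out each run gave 9 to 14 (5 to 9 higher, 4 to 6 lower), with 9 without numbers 4 to 6 of LGXSM-6 and, of 10, 5 higher without 10 to 12 of LGXSM-33. The last 2 kinds of setting on runs were chosen after seeing the data.

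Same-numbered assay replicates of the lines did not deviate together throughout: the correlation of their deviations ran from −0.22 to 0.48 and was over 0.1 in 14 of 24. With the replicate number as a block, 13 mRNAs passed, 12 of them among the 14; *Col2a1* and *Nampt* did not.

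With at least 1 other treatment of the reference genes the sign turned in 56 of the 67 mRNAs. Among the 28 mRNAs named by the rule it turned in 19, as follows (log2, LGXSM-6 minus LGXSM-33). Ratio to *Hprt1*: *Col2a1* −0.25, *Wisp1* −0.084, *Nampt* −0.47, *Mmp9* 0.24, *Cdkn2a* −1.05, *Wnt3a* −1.22, *Smad1* −0.60, *Il6* −0.75 and *Epas1* −0.88. Ratio to *Gapdh*: *Polq* 0.43, *Atg7* 0.35, *Becn1* 0.70, *Mmp9* 1.67, *Cdkn1a* 0.16, *Il4* 0.28, *Bcl3* 1.09, *Stat6* 1.12 and *Tfap2a* 0.26. No normalization: *Polq* 0.36, *Atg7* 0.28, *Becn1* 0.63, *Mmp9* 1.60, *Cdkn1a* 0.082, *Il4* 0.25, *Bcl3* 1.06, *Stat6* 1.09 and *Tfap2a* 0.23. Ratio to the reference genes: *Mmp9* 0.96, *Cdkn2a* −0.33, *Wnt3a* −0.78, *Il6* −0.31, *Bcl3* 0.048, *Stat6* 0.078 and *Epas1* −0.43. Residuals fitted on the 2 lines: *Mmp9* 0.010, *Gdf5* 0.060, *Cdkn1a* 0.046, *Smad1* −0.0029, *Fgf18* 0.066, *Il6* −0.030, *Bcl3* 0.046 and *Stat6* 0.0068. Leaving out a number turned *Tfap2a*, and leaving out a run turned *Tfap2a* (from −0.087 to 0.078 over both kinds of setting), *Cdkn1a* (−0.26 to 0.027) and *Il6* (lowest −0.0058), and without numbers 10 to 12 of LGXSM-33 the reference gene *Gapdh* was at 0.17 in the first panel and 0.26 in the second. On run means *Hprt1* (1.46 and 1.36) and *Actb* (1.61) did not pass. The cause of these changes was not tested. The count of mRNAs with the same sign in the parents or in MRL/MpJ and C57BL6/J stayed within 1.5 times under each setting tried for it. Signals near 10 or below (*Cdkn2a*, *Wnt3a*, *Gdf5*, *Lep*, *Pthlh*, *Retn* and *Il4* among those named, and in LGXSM-33 also *Ihh*, *Il6* and *Xrcc2*) limit what can be resolved.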

Other observations

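Some mRNAs that did not pass between the lines varied widely within a line. *Ccl3*, a chemokine that draws in macrophages, ran from −1.48 to 1.95 on the log2 scale over the 12 assay replicates of LGXSM-6 and from −0.82 to 0.11 over those of LGXSM-33. *Mmp3*, the stromelysin of synovium and cartilage, ran from −0.14 to 2.56 in LGXSM-6 and from −0.36 to 1.72 in LGXSM-33. *Acan* was wider in LGXSM-33, from −0.97 to 1.82, than in LGXSM-6, from 0.28 to 0.94. These 3 mRNAs were chosen after their values were seen, and none passed between the lines.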
